A study of Mus musculus with 4 samples.

Results

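The core and naive pluripotency factors are 10 genes for transcription regulators of the mouse embryonic stem cell network, chosen by symbol from the 24428 genes counted in each library: Pou5f1, Sox2, Nanog, Esrrb, Nr0b1, Nr5a2, Tfcp2l1, Prdm14, Sall4 and Zfp42. All 10 were found, and all 10 passed the filter on low counts, as did 14479 genes in all. Poly(A) RNA was sequenced from mouse embryonic stem cells homozygous for a conditional Smarca4 allele (Smarca4flfl, 129SvEv strain), and reads were counted per gene. One group received 4-hydroxytamoxifen at 0.8 uM over 48 h (n = 2), the other ethanol over 48 h (n = 2), and cells were collected at 72 h counted from the first exposure. The ethanol libraries carry the same genotype label as the tamoxifen ones, acute deletion of Smarca4, and the 2 groups are told apart by title and by the agent given. Cells grew in serum with LIF. The recombinase that acts on the floxed allele is not given in the sources used here, and tamoxifen-treated cells without a floxed allele were not analysed here, so the drug, the recombinase and the deletion cannot be told apart. The labels do not say that replicates came from separate cultures or how many clones were used, so p-values measure the spread between these libraries, which may be technical.

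OCT4 (encoded by Pou5f1) and SOX2 bind DNA as partners, often at a composite of their motifs, and with NANOG they form the core of the network that keeps embryonic stem cells self-renewing. Around them, factors such as ESRRB, TFCP2L1, NR5A2 and PRDM14 hold the cells in the naive state, which resembles the epiblast before implantation. BRG1, the product of Smarca4, is the ATPase of the stem cell BAF complex, a chromatin remodeler known to occupy many sites together with OCT4, SOX2 and NANOG. The comparison asks how the levels of these factors change after acute loss of that ATPase.

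Promoter sequence is shown for 4 of the factors, because the windows differ in whether they hold the motifs that the factors themselves bind. The 250 bases before an annotated transcription start were read 5′ to 3′ along each gene's strand from RefSeq promoter windows of GRCm38.p6, which held 12 windows for 8 of the 10 factors and none for Prdm14 and Sall4. Capitals mark matches on either strand to TTTGCAT (the core of the OCT4 octamer), ACAATG (a SOX core), AAGGTCA (bound by ESRRB and NR5A2) or the composite TTTGCATNACAATG, which contains the first and second of these. The windows are Nanog at chr6:122707239-122707488 (plus strand), Zfp42 at chr8:43307010-43307259 (minus strand), Sox2 at chr3:34649745-34649994 (plus strand) and Nr0b1 at chrX:86191525-86191774 (plus strand).
Nanog: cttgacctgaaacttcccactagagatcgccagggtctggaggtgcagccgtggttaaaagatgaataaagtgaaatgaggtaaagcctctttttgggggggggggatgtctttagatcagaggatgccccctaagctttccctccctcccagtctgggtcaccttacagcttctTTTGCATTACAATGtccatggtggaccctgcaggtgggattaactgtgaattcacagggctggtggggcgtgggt
Zfp42: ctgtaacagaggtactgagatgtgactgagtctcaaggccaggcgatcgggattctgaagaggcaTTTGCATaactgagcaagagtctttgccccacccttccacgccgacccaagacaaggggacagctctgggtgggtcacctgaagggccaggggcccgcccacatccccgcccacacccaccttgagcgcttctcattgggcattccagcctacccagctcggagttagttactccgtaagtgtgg
Sox2: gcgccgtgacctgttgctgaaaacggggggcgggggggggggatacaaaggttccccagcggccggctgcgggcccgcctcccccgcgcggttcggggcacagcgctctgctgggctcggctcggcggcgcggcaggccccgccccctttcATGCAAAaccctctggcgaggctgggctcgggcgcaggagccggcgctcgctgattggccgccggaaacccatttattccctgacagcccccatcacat
Nr0b1: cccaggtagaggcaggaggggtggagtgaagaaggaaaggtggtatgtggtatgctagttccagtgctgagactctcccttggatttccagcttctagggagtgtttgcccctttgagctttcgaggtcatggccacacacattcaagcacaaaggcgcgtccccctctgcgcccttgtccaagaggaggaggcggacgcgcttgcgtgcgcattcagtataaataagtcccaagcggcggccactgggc

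In these windows the composite lay at -75 to -62 from the first Nanog start. It occurred in 2 of 32851 promoter windows of all genes, and both belonged to Nanog, whose annotated starts lie close enough to share it. TTTGCAT matched in 4 of the 12 windows of the factors (both of Nanog, Zfp42 and Sox2), against 4.12% of all windows, and ACAATG in 3 of the 12 (both of Nanog and the second of Pou5f1), against 10.7%. In both Nanog windows these matches are parts of the shared composite, so the same site is counted in each. AAGGTCA matched in none of the 12, against 4.08% of all windows. The Nr0b1 window held none of the 4 motifs, nor did either window of Nr5a2 or Esrrb, or that of Tfcp2l1. A match is a run of letters and was not tested as a binding site.

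Reads in genes numbered 13458463 and 17191445 in tamoxifen replicates 1 and 2, and 16130823 and 27086142 in ethanol replicates 1 and 2. Smarca4 checked the labels, at 68.5 and 68.7 CPM in the tamoxifen libraries against 328 and 409 CPM in the ethanol libraries (log2 fold change -2.43 ± 0.17 SE, edgeR quasi-likelihood test, adjusted p = 1.08e-05); its count includes reads from outside the deleted part. CPM values are read counts relative to the library's total, with TMM scaling, and a gene was called at an adjusted p under 0.05 in the test across all 14479 genes. Genes rich in G and C were shifted upward with tamoxifen (Spearman rho of log2 fold change with transcript GC content 0.645 across genes, which are not independent), so each change of a factor, and the count of each gene list, is given again after a correction that removes each library's GC trend. The 2 libraries of each group were not one library deposited again, with chi-square over degrees of freedom at 10.5 for the tamoxifen pair and 37.0 for the ethanol pair.

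Of the 10 factors, Nr0b1 and Nr5a2 fell with tamoxifen, none rose, and 8 were not called (edgeR quasi-likelihood test). Over all tested genes, 44.5% were called in either direction, 22.9% lower and 21.5% higher, so the factors were called in 20.0% of cases against 44.5%. At an unadjusted p under 0.05, 1 factor (Nanog) was higher and 2 were lower, where 7636 of 14479 genes passed in either direction. DESeq2 and limma voom likewise called 0 factors higher and 2 lower. Over all genes DESeq2 called 2304 higher and 2835 lower, and limma voom 3144 and 3285. The median log2 fold change of the factors was -0.065, against -0.0052 over all tested genes. With GC correction 2 factors were higher (Nanog and Zfp42) and 2 lower (Nr0b1 and Esrrb), or 20% each way. Over all genes 20.1% were then called, 10.1% higher and 10% lower. The share of factors called was thus below that of all genes as counted, and above it with the correction.

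**Figure D1:**
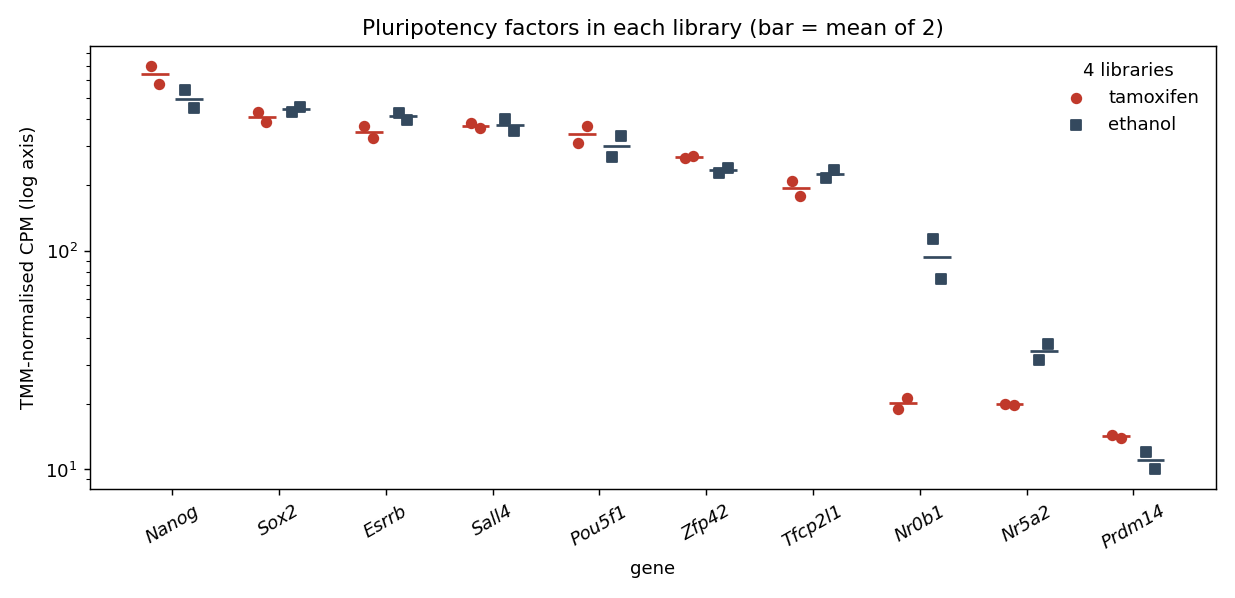
Level of each pluripotency factor in the 4 libraries, as TMM-normalised CPM on a log axis, with tamoxifen (circles) left of ethanol (squares) and a bar at the mean of the 2 libraries of a group. Nr0b1 and Nr5a2 differ most between the groups, at about 20.1 and 19.9 CPM with tamoxifen against 93.8 and 34.7 CPM with ethanol. The folds of the other 8 lie between 0.848 and 1.29, and the groups overlap only for Pou5f1 and Sall4.

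Among the core factors, Pou5f1, the gene of the POU-domain factor OCT4, had 312 and 371 CPM in the tamoxifen libraries against 269 and 336 CPM in the ethanol libraries. The groups overlapped, and the replicates of each group lay further apart than the group means. Its fold of tamoxifen over ethanol was 1.13 (0.896 to 1.43 for 2 SE either way, edgeR quasi-likelihood test, adjusted p = 0.411). That range spans both decreases and increases. With GC correction its log2 fold change had the opposite sign (-0.31 ± 0.17 SE against 0.18 ± 0.17, adjusted p = 0.228 in edgeR). The transcript is the richest in G and C among the 10, at 57.6%, above 86.5% of tested genes. The corrected decrease was called without ethanol replicate 1 (-0.52, edgeR adjusted p = 0.00935) and in 2 of the 6 settings with GC correction in all.

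Sox2, which encodes the HMG-box partner of OCT4, had 430 and 386 CPM in the tamoxifen libraries against 431 and 454 CPM in the ethanol libraries. Both tamoxifen values lay below both ethanol values, but the first of them only just. The fold was 0.922 (0.747 to 1.14 for 2 SE either way; edgeR adjusted p = 0.553), and the log2 fold change with GC correction was about the same, -0.10 against -0.12. Sox2 lies inside the noncoding gene Sox2ot on the same strand in GENCODE, and Sox2ot had 27 and 28 reads with tamoxifen and 56 and 51 with ethanol. Genes that overlap Pou5f1, Tfcp2l1 and Sall4 in GENCODE, most of them on the opposite strand, are not among the 24428 counted.

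Nanog, the homeobox factor that stabilises self-renewal, had 698 and 580.3 CPM in the tamoxifen libraries against 540.2 and 451 CPM in the ethanol libraries. Both tamoxifen values were the higher ones, although tamoxifen replicate 2 and ethanol replicate 1 differed by less than the replicates of either group. The fold was 1.29 (1.02 to 1.62 for 2 SE either way), which was not called (edgeR adjusted p = 0.0907). It was called with GC correction (0.68 ± 0.16 log2, edgeR adjusted p = 0.0103) and in 3 of the 13 other settings without it, among them without ethanol replicate 1 (0.51). The corrected call ended without tamoxifen replicate 1 (0.53). Nanog is the factor whose promoter, shown above, holds the composite of the OCT4 and SOX2 motifs.

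Nr0b1, Nr5a2 and Esrrb encode members of the nuclear receptor family, and both calls fell among them. Nr0b1 encodes DAX1, an orphan receptor without the usual DNA-binding domain that binds OCT4 and limits its activity. It had 19.0 and 21.2 CPM in the tamoxifen libraries, from 268 and 378 reads, against 113 and 74.5 CPM in the ethanol libraries, from 1737 and 1940 reads. The groups were far apart, although the ethanol libraries themselves differed 1.52-fold. With tamoxifen 21.5% of the level seen with ethanol was left, with 2 SE either way spanning 16.2 to 28.4% (log2 fold change -2.22 ± 0.20, edgeR adjusted p = 6.01e-05). Of the 14479 tested genes, 80 had a log2 fold change that low or lower, Nr0b1 included. With GC correction the value was -2.53 ± 0.18, and the call held in each of the 19 alternative settings, between -2.75 and -1.89.

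Nr5a2 encodes LRH-1, which binds enhancers of Pou5f1 and Nanog. It had 20.0 and 19.8 CPM in the tamoxifen libraries against 31.8 and 37.5 CPM in the ethanol libraries. The tamoxifen pair was nearly identical and lay below both ethanol libraries. The level with tamoxifen was 57.2% of that with ethanol (45.9 to 71.3% for 2 SE either way; log2 fold change -0.81 ± 0.16, edgeR adjusted p = 0.00186). The call held in all 13 settings without GC correction and in none of the 6 with it, where the value was -0.32 ± 0.15 (edgeR adjusted p = 0.152). Its transcript is the poorest in G and C of the 10, at 43.2%, below which lie 14.6% of tested genes.

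Esrrb, the estrogen-related receptor that sits downstream of WNT signaling in these cells, had 370.3 and 328 CPM in the tamoxifen libraries against 426 and 397 CPM in the ethanol libraries. Both tamoxifen values were below both ethanol values, with the nearest values of the groups closer together than the replicates of either group, and the fold of 0.848 (0.686 to 1.05 for 2 SE either way) was not called (edgeR adjusted p = 0.223). With GC correction Esrrb was called lower (-0.53 ± 0.15 log2, edgeR adjusted p = 0.0205), a call that ended without tamoxifen replicate 1 (-0.62) and without tamoxifen replicate 2 (-0.44).

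**Figure D2:**
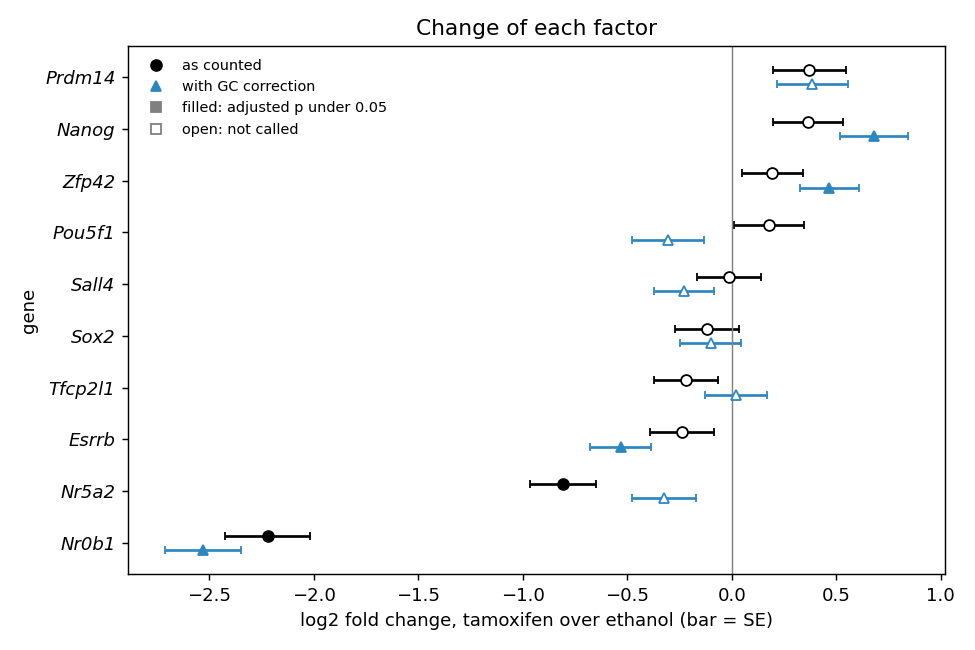
Log2 fold change of tamoxifen over ethanol for each factor, with its SE, as counted (circles) and with GC correction (triangles); filled symbols passed an adjusted p under 0.05 in edgeR. Nr0b1 is filled in both, Nr5a2 as counted only, and Nanog, Zfp42 and Esrrb with the correction only.

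Tfcp2l1, a factor of the CP2 family that carries the LIF and STAT3 signal into the network, had 208 and 177 CPM in the tamoxifen libraries against 216 and 233 CPM in the ethanol libraries. The tamoxifen values lay below the ethanol values, but its fold was 0.859 (0.694 to 1.06 for 2 SE either way; edgeR adjusted p = 0.259), and with GC correction the value was close to 0 (0.020 log2). Prdm14, which recruits Polycomb to repress FGF receptor and DNA methyltransferase genes, had 14.4 and 14.0 CPM in the tamoxifen libraries against 12.1 and 10.02 CPM in the ethanol libraries. It was the least abundant factor by CPM, counted by 185 to 261 reads per library, and its fold of 1.29 (1.01 to 1.65 for 2 SE either way) was not called (edgeR adjusted p = 0.101). Correction for GC hardly moved it (0.38 against 0.37 log2). Without ethanol replicate 1 Prdm14 was called higher (0.50, edgeR adjusted p = 0.0324).

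Sall4 and Zfp42, which encode zinc finger factors, were not called as counted. Sall4, a spalt-type factor that binds the Pou5f1 enhancer, had 383 and 363 CPM in the tamoxifen libraries against 402 and 351 CPM in the ethanol libraries. Both tamoxifen values lay between the ethanol values, and its fold was 0.991 (0.801 to 1.23 for 2 SE either way; edgeR adjusted p = 0.954). Zfp42, which encodes REX1, a classical marker of naive cells derived from a retroposed copy of Yy1, had 265 and 269.5 CPM in the tamoxifen libraries against 227 and 239.6 CPM in the ethanol libraries. The groups were apart and each was tight, and the fold of 1.14 (0.933 to 1.40 for 2 SE either way) was not called (edgeR adjusted p = 0.300). With GC correction Zfp42 was called higher (0.47 ± 0.14 log2, edgeR adjusted p = 0.0319), a call that ended without either tamoxifen library at the same size (0.47 in both).

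The groups did not overlap in CPM for 8 of the 10 factors, all but Pou5f1 and Sall4, against 74.0% of all tested genes. The summed level of the 10 factors was 2719 and 2530.0 CPM in the tamoxifen libraries against 2668 and 2583 CPM in the ethanol libraries. The ethanol values thus lay between the tamoxifen values, and the factors took 0.286 and 0.263% of the reads in genes with tamoxifen and 0.254 and 0.248% with ethanol. In bulk RNA, fewer cells that express a gene and less RNA per cell cannot be told apart.

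Between genes, levels were compared per kilobase of the longest protein-coding GENCODE transcript. In the tamoxifen libraries the order of the mean levels was Nanog (289 ± 37.5 CPM per kb, SD, n = 2), Pou5f1 (251 ± 30.7), Sox2 (198 ± 15.0), Zfp42 (145 ± 1.90), Esrrb (81.2 ± 6.89), Sall4 (73.5 ± 2.89), Tfcp2l1 (20.8 ± 2.36), Nr0b1 (11.1 ± 0.869), Prdm14 (5.54 ± 0.132) and Nr5a2 (4.20 ± 0.0255). Only Nanog and Pou5f1 overlapped among neighbours in that order. In the ethanol libraries the first 6 places were the same, and Nanog (224 ± 28.5 CPM per kb), Pou5f1 (222 ± 34.7) and Sox2 (215 ± 7.84) overlapped in turn. Lower down, Nr0b1 (51.9 ± 15.1 CPM per kb) stood above Tfcp2l1 (24.2 ± 1.31), and Nr5a2 (7.32 ± 0.855) above Prdm14 (4.30 ± 0.560), so both pairs changed places between the groups. The level of Nr0b1 per kilobase ranked 5938 and 5629 of 14393 genes with a length in the tamoxifen libraries, against 1341 and 2088 in the ethanol libraries.

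**Figure D3:**
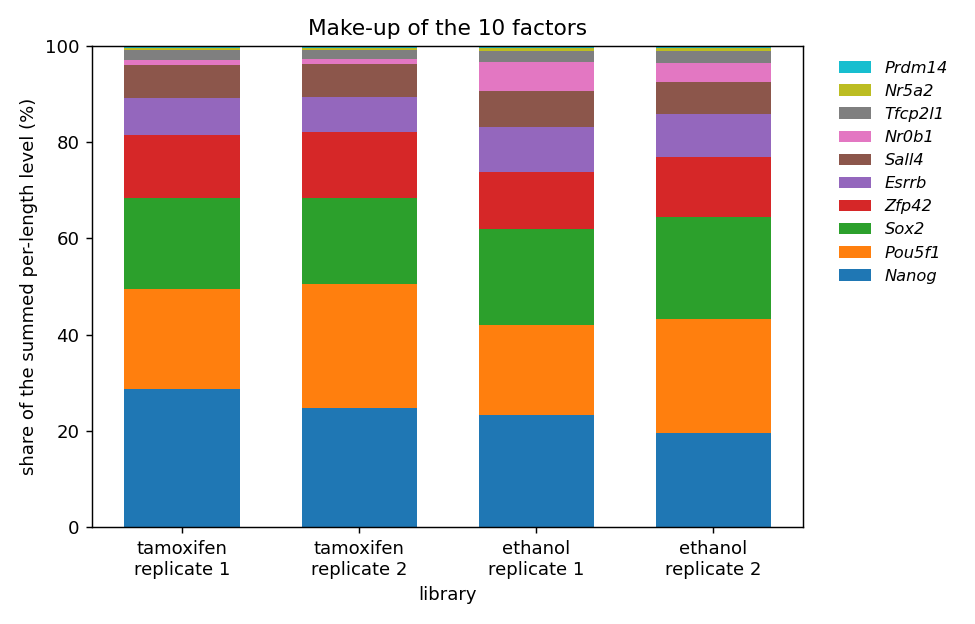
Share of each factor in the summed per-length level of the 10 factors, in percent, for the tamoxifen libraries (left) and the ethanol libraries (right). Nr0b1 made up 0.952 and 1.11% with tamoxifen against 5.96 and 3.96% with ethanol, and Nanog 28.6 and 24.8% against 23.3 and 19.6%.

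Ratios of factors within a library do not depend on how the libraries are scaled. The GC trend still enters them, since they were taken without the GC correction. Per length, Nanog stood to Esrrb at 3.66 and 3.44 in the tamoxifen libraries against 2.47 and 2.21 in the ethanol libraries, and to Sox2 in the same direction, since Sox2 stood to Nanog at 0.662 and 0.715 against 0.857 and 1.08. Esrrb stood to Tfcp2l1 at 3.84 and 4.00 with tamoxifen, inside the range of 4.26 and 3.68 with ethanol. Pou5f1 stood to Zfp42 at 1.59 and 1.86 with tamoxifen and at 1.59 and 1.89 with ethanol, overlapping almost entirely. With GC correction, however, the log2 fold change was -0.31 for Pou5f1 (not called) and 0.47 for Zfp42. Of the 45 pairs of factors, 33 had ratios that did not overlap between the groups (73.3%), near the 71.6% of all pairs of tested genes. The ratios are described with no test.

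Of 22 other transcription factors listed with the network, 9 rose, 0 fell and 13 were not called (edgeR quasi-likelihood test). Tcf3, named after its values were seen, is among the 9 (0.51 log2, and -0.16 with GC correction). It is a different gene from Tcf7l1, which is listed with the repressors below. The share higher was 40.9%, against 21.5% of all genes. At an unadjusted p under 0.05, 10 of these factors were higher and 0 lower, where 7636 of 14479 genes passed in either direction. DESeq2 and limma voom also called 0 of them lower. Their median log2 fold change was 0.34, against -0.0052 over all tested genes. Zfp296, a zinc finger factor of pluripotent cells, rose 2.31-fold, Klf2, a Kruppel-like factor of the naive state, 2.25-fold, the cell cycle factor Mybl2 1.998-fold and the forkhead factor Foxd3 1.81-fold. With GC correction the median was 0.017 and 4 of 22 were higher (18.2%, against 10.1% of all genes), and Foxd3 was at -0.0076; it was also not called, uncorrected, without tamoxifen replicate 2 (0.69). The corrected values of Klf2 (0.47), Zfp296 (0.63) and Mybl2 (0.61) were called, but Klf2 and Mybl2 were not without either tamoxifen library (0.52 and 0.42, 0.59 and 0.62) and Zfp296 not without tamoxifen replicate 2 (0.55).

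Of 30 protein partners and cofactors of the factors, 3 were higher, 7 lower and 20 not called, with a median log2 fold change of 0.074. The share lower, 23.3%, was near the 22.9% of all tested genes, and the share higher was 10% against 21.5%. Tet1, a methylcytosine dioxygenase that binds NANOG, fell 2.28-fold, to 1179 and 967 CPM in the tamoxifen libraries against 2645 and 2243 CPM in the ethanol libraries. The deacetylase gene Hdac2 fell 2.01-fold and Zmym2, a zinc finger partner of corepressor complexes, 1.79-fold, while the coactivator gene Ncoa3, a partner of ESRRB, rose 1.74-fold. With GC correction Ncoa3 (0.83 log2), Tet1 (-0.74) and Hdac2 (-0.44) were the only calls among the 30, and Zmym2 was at -0.093. The shares were then 3.3% higher and 6.7% lower, against 10.1% and 10% of all genes. The corrected call of Tet1 ended without tamoxifen replicate 2 (-0.58), and that of Hdac2 without ethanol replicate 2 (-0.40) or either tamoxifen library (-0.40 and -0.48).

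Of 28 genes that OCT4, SOX2 and NANOG are known to activate, 4 were higher, 8 lower and 16 not called, with a median log2 fold change of -0.033. The share called, 42.9%, was near the 44.5% of all tested genes. Pecam1, a surface marker, fell 3.03-fold, Tcl1, an activator of the kinase AKT, 2.25-fold, and L1td1, an RNA-binding protein gene, 1.87-fold. Fgf4, the ligand controlled by an OCT4 and SOX2 enhancer, fell 1.91-fold, to 181 and 165 CPM with tamoxifen against 323 and 339 CPM with ethanol. The 4 that rose were Jam2, Tcea3, Dppa5a and Trim71, named after their values were seen, at 0.69, 0.66, 0.53 and 0.51 log2. Dppa5a was not called without either tamoxifen library (0.54 and 0.52), nor was Trim71 (0.55 and 0.47), which was also not called without ethanol replicate 1 (0.35). With GC correction Jam2 (1.001) and Dppa5a (0.62) were called and Tcea3 (0.39) and Trim71 (0.29) were not, Dppa5a again not without either tamoxifen library (0.62 and 0.61). In all 4 were then higher (14.3%, against 10.1% of all genes), the others being Fbxo15 (0.73) and Dppa2 (0.69), also named after their values were seen. Lower were 7 (25%, against 10% of all genes), all 4 decreases named above among them. The corrected call of Fbxo15 ended without tamoxifen replicate 2 (0.68), and that of Dppa2 without ethanol replicate 2 or either tamoxifen library (0.38, 0.53 and 0.83). The corrected call of L1td1 ended without either tamoxifen library (-0.69 and -0.74).

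Genes that the factors are known to repress, markers of trophectoderm, endoderm and the later epiblast together with targets of PRDM14, were higher in 8 of 20 tested cases and lower in 2 (2 of the 22 listed, Cdx2 and Elf5, were too low to test). The median log2 fold change was 0.25, and the share called in either direction was 50.0%, against 44.5% of all tested genes, with 40.0% higher against 21.5%. Fgf5, a ligand of the epiblast after implantation, rose 2.73-fold, the endoderm factor Foxa2 2.62-fold, the trophoblast and mesoderm factor Hand1 2.37-fold and Fgfr1, a receptor that PRDM14 keeps low, 1.73-fold. Among the genes linked to PRDM14, Dnmt3a (-0.81 ± 0.16 log2, SE) and Fgfr2 (-0.68 ± 0.18) were lower, named after their values were seen, and Dnmt3b was at -0.063 and not called. Fgfr2 was not called without tamoxifen replicate 2 (-0.55), nor, corrected, without that library (-0.50), tamoxifen replicate 1 (-0.76) or ethanol replicate 2 (-0.50), and Dnmt3b was called lower with correction without ethanol replicate 1 (-0.46). With GC correction 6 were higher (30%, against 10.1% of all genes) and 3 lower (15%, against 10%), Dnmt3a (-0.90) and Fgfr2 (-0.63) among them. The corrected values of Fgf5 (1.69), Foxa2 (0.95), Hand1 (0.81) and Fgfr1 (0.46) were called, but not that of Foxa2 without tamoxifen replicate 2 (0.95), that of Hand1 without tamoxifen replicate 1 (0.61), or that of Fgfr1 without ethanol replicate 2 (0.40) or either tamoxifen library (0.42 and 0.50).

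Genes listed as repressors of the network were higher in 6 of 19 tested cases, lower in 3 and not called in 10, with a median log2 fold change of 0.29. The share called, 47.4%, was near the 44.5% of all tested genes. Foxp1 fell 1.69-fold, Fnip1, a partner of folliculin in the exit from the naive state, 1.94-fold and Zfp706 1.55-fold, while Mbd3, a subunit of the NuRD complex, rose 1.59-fold. Counts per gene do not separate splice forms of any of them, Foxp1 included, so loss of a repressor form was not tested. None of these 4 was called with GC correction (-0.39, -0.18, -0.17 and -0.10 log2 in that order). With it 3 of 19 were higher (15.8%, against 10.1% of all genes) and 0 lower (against 10%), and the median was 0.018. Uncorrected, Zfp706 (-0.63) and Mbd3 (0.52) were not called without tamoxifen replicate 2, without which 0 repressors were higher.

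Of 25 fibroblast markers tested, 19 were higher and 0 lower (edgeR quasi-likelihood test). That is 76.0% higher, against 21.5% of all tested genes, and their median log2 fold change was 0.94. At an unadjusted p under 0.05, 20 were higher and 0 lower, where 7636 of 14479 genes passed in either direction. DESeq2 called 19 and 0, against 2304 and 2835 of all genes, and limma voom 20 and 0, against 3144 and 3285. With GC correction 20 were higher and 0 lower, against 10.1% of all genes higher, with a median of 0.82. Their summed level was 1813 and 1971 CPM in the tamoxifen libraries against 977 and 863 CPM in the ethanol libraries. Of the 28 listed, 3 were too low to test (Lum, Mmp3 and Fap, with at most 11 reads in any library). Lum had 0 reads in ethanol replicate 2. The most abundant markers were Acta2 (358 ± 7.01 against 150.3 ± 16.4 CPM, SD, n = 2), Fbln2 (347 ± 46.0 against 123 ± 21.2 CPM) and Lox (203 ± 31.6 against 124 ± 11.5 CPM), the last not called without tamoxifen replicate 2 (0.54 log2). The rise did not extend to all markers. The 6 not called, named after their values were seen, were Thy1 (0.73 log2), Dcn (0.63), Timp3 (0.34), Pdgfra (0.11), Mmp2 (-0.13) and Twist1 (-0.14). With GC correction Dcn (1.16) and Timp3 (0.59) were called higher. Of 10 neural markers, 5 were too low to test, 3 were higher and 1 was lower. Of the 5 tested, 60% were thus higher and 20% lower, against 21.5% and 22.9% of all tested genes. Tubb3 (48.3 ± 0.979 against 24.2 ± 1.83 CPM) and Sox1 (18.5 ± 2.73 against 10.2 ± 2.48 CPM) rose, and Nes (48.9 ± 3.34 against 57.7 ± 19.0 CPM) was not called. The others, named after their values were seen, were Pax6, which rose (0.94 ± 0.22 log2, SE), and Map2, which fell by 1.20 ± 0.23 on the log2 scale. With GC correction Tubb3 (0.51) and Pax6 (1.04) were higher, Map2 (-1.02) was lower, and Sox1 (0.45) was not called. Of the 5 tested, 40% were then higher and 20% lower, against 10.1% and 10% of all genes. The corrected call of Tubb3 ended without either tamoxifen library (0.48 and 0.54). Those of Pax6 (1.02) and Map2 (-0.92) ended without tamoxifen replicate 2. The part of other cell types in the values of the factors was not tested.

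**Figure D4:**
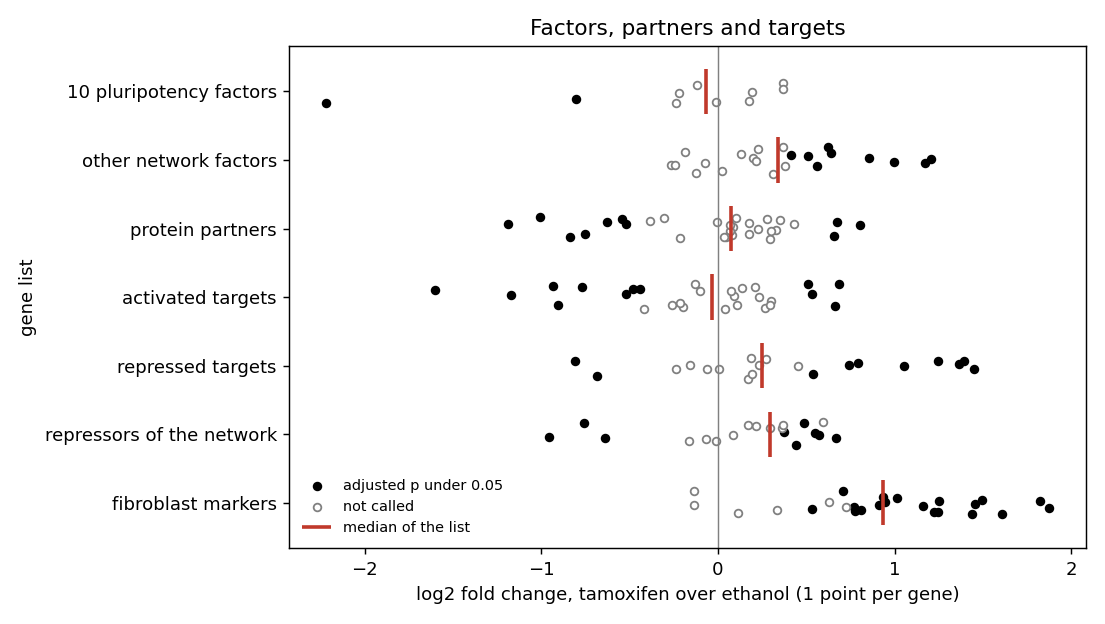
Log2 fold change of tamoxifen over ethanol for each tested gene of 7 lists, with called genes filled, uncalled genes open and a line at the median of each list. The 10 pluripotency factors lie close to 0 except Nr0b1 and Nr5a2, and the median of the fibroblast markers is 0.94.

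**Figure D5:**
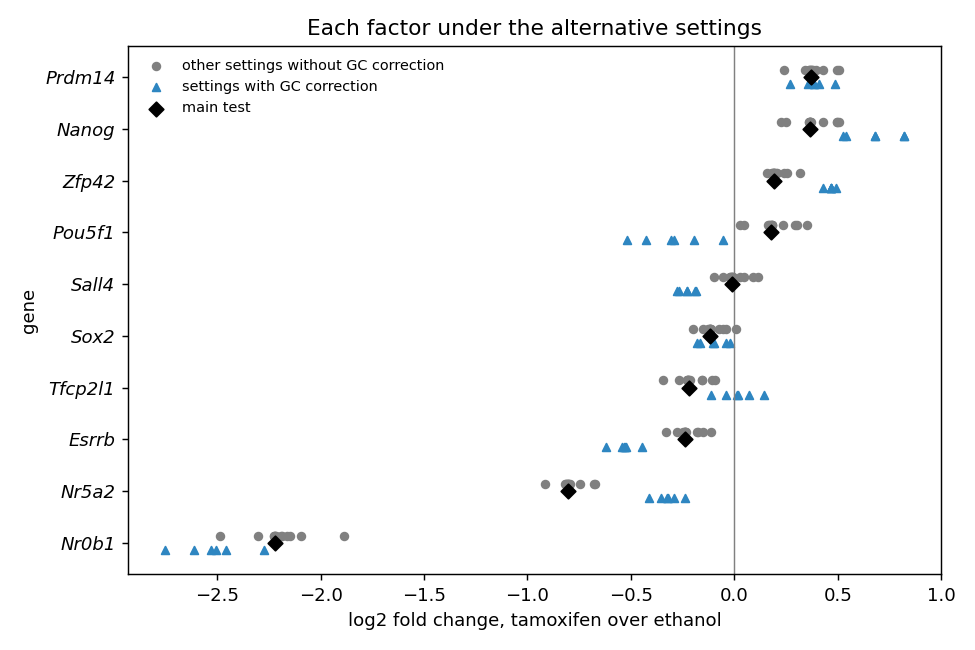
Log2 fold change of each factor in the main test (diamond), in the other settings without GC correction (circles) and in the settings with it (triangles). Nr0b1 lies between -2.75 and -1.89 in all of them, whereas Pou5f1 lies between 0.028 and 0.35 without the correction and between -0.52 and -0.052 with it.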

How the data were processed

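The deposited values were whole-number read counts for each gene symbol, 1 file per library, made by the authors. The submitters' processing notes list mm9 as build and name HTSeq, DESeq2, CASAVA (1.8.2) and Bowtie (1.1.1). For the role of each tool, the annotation and the strandedness of counting, the answer is not given in the sources used here, so reads of antisense or overlapping genes cannot be told apart. Each file ends in 5 summary lines that name no gene, which entered neither library sizes nor tests. They held 38.6 and 36.1% of all reads counted in tamoxifen replicates 1 and 2, and 52.6 and 41.7% in ethanol replicates 1 and 2. The groups did not overlap in this share, and its part in the changes was not tested.

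Groups were compared with edgeR 4.0.16 (R 4.3.3): TMM scaling, filterByExpr, a robust quasi-likelihood fit with group alone, and Benjamini-Hochberg adjustment over 14479 genes. An SE is the size of the log2 fold change divided by the root of F. To correct for GC, a loess curve (span 0.5, degree 1) of each library's log2 CPM deviations on transcript GC was entered as offset. Transcript GC and length are those of the longest protein-coding transcript in GENCODE M21 (GRCm38). Symbols matched it directly (23535), by synonym (506) or not (387), and a GC value existed for 99.4% of the genes tested. Procedures were tested on simulated data.

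The factors, the lists, the GC correction and the other alternatives were chosen with earlier results of these data known. Genes named are the 10 factors, Smarca4, at most 4 per list by smallest adjusted p, and the 3 most abundant fibroblast and neural markers; any other is marked where it appears. Alternatives were other scaling and filters, DESeq2 1.42.0, voom in limma 3.58.1, a stricter threshold, a replicate block, the GC correction and each library left out, in which case a lone library is taken to vary as the other group does.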

Additional observations from a re-analysis of the deposited data

How the results depend on the processing

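Smarca4 and Nr0b1 were called lower in all 19 alternative settings. With GC correction 1467 genes were higher and 1449 lower, against 3119 and 3322, and at a threshold of 0.01 they were 1765 and 2041. Leaving out 1 library gave 1800 to 3598 genes higher and 2055 to 3728 lower. With GC correction it gave, without ethanol replicate 1, ethanol replicate 2, tamoxifen replicate 1 and tamoxifen replicate 2 in that order, 1726, 1754, 582 and 398 higher and 1817, 1837, 676 and 437 lower. Of the 10 factors, 0 were called higher, but 2 with total counts (Nanog and Prdm14), 2 with GC correction, 2 with GC correction and the replicate block, 0 to 2 with a library left out, and, with GC correction, 2 without either ethanol library and 0 and 1 without tamoxifen replicate 1 and 2. Factors called lower numbered 2, but with GC correction 1 without either tamoxifen library and 3 without ethanol replicate 1 or with the replicate block added (Nr0b1, Esrrb and Pou5f1). Total counts gave 4082 genes higher and 2520 lower, and moved the median over all genes to 0.12 log2, against -0.0052. The ranges of the gene lists given below come from the same settings, in which these counts over all genes also moved.

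Some values changed sign. Pou5f1 was at -0.31 with GC correction, -0.29 with the block added, and -0.52, -0.052, -0.20 and -0.43 with each library left out in the order above. Tfcp2l1 was at 0.020 with GC correction, 0.015 with the block added, 0.070 without ethanol replicate 2 and 0.14 without tamoxifen replicate 2. Sox2 was at 0.0095 with total counts. Sall4 was at 0.047 with upper-quartile factors, 0.11 with total counts, and -0.10 to 0.091 with a library left out, 0.029 without tamoxifen replicate 2. With GC correction Foxd3 was at -0.0076, -0.0064 with the block added, -0.062 without ethanol replicate 1 and -0.15 without tamoxifen replicate 2, and Mbd3 in the same settings at -0.10, -0.10, -0.25 and -0.23. With a library left out, Nes ranged from -0.54 to 0.15, Dppa2 from -0.038 to 0.58, Sall1 from -0.20 to 0.084 and Dnmt3b from -0.23 to 0.14. With total counts Sall1 was at 0.056 and Dnmt3b at 0.062, and Dnmt3b was at 0.0058 with GC correction without ethanol replicate 2. Apart from the correction's own removal of the GC trend, the cause was not tested.

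The groups share replicate numbers, but no label says what a number marks. Differences between replicates correlated at 0.23 between the groups across genes. With the replicate block alone, 3919 genes were higher and 4168 lower, and 1 factor was higher (Nanog) and 2 lower; with GC correction as well, 2573 and 2462 genes and 2 and 3 factors.

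Over the alternatives, network factors higher ranged from 1 to 12 (9 in the main test) and lower from 0 to 3 (0), cofactors from 1 to 9 (3) and 0 to 9 (7), activated targets from 1 to 8 (4) and 5 to 9 (8), repressed targets from 3 to 9 (8) and 1 to 4 (2), repressors from 0 to 10 (6) and 0 to 3 (3), fibroblast markers from 12 to 22 (19) and 0 to 2 (0), and neural markers from 0 to 3 (3) and 0 to 2 (1).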

Other observations

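Of 9 relatives of the factors by gene symbol, chosen after counts were seen, 5 passed the filter on low counts. Sall2, a spalt-type relative of Sall4, rose to 17.0 and 17.5 CPM in the tamoxifen libraries, against 7.88 and 5.15 CPM in the ethanol libraries (1.43 ± 0.21 log2, SE; edgeR quasi-likelihood test, adjusted p = 0.000369). Sall3 had 65 and 73 reads with tamoxifen and 37 and 46 with ethanol, and rose by 1.08 ± 0.26 log2. Esrra, the relative of Esrrb linked to mitochondrial metabolism, rose to 11.2 and 12.7 CPM in the tamoxifen libraries, against 4.24 and 5.18 CPM in the ethanol libraries (1.33 ± 0.20 log2). With GC correction Sall2 (1.26), Sall3 (0.82) and Esrra (0.61) were still called, but Sall3 was not without ethanol replicate 2 (0.63) or either tamoxifen library (0.73 and 0.90), nor Esrra without ethanol replicate 1 (0.41) or either tamoxifen library (0.68 and 0.53). Sall1 (-0.07 ± 0.16) and Tfcp2 (-0.15 ± 0.16) were not called in either. Esrrg, Nr5a1, Nr0b2 and Pou5f2 had at most 9 reads in any library.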
